A study of Schmidtea mediterranea with 35 samples.

Results

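The direct difference between zfp1 and p53 knockdown was measured in X1 cells of the planarian flatworm Schmidtea mediterranea at days 6 and 9 of treatment, in 16 of the 35 libraries of the series. The groups were zfp1 RNAi at day 6, zfp1 RNAi at day 9, p53 RNAi at day 6 and p53 RNAi at day 9, with 4 libraries each, chosen by the RNAi target and day in their labels. All animals came from the clonal CIW4 line and were fed bacteria carrying double-stranded RNA 3 times at intervals of 3 days, so the RNAi reached whole animals and not the sorted cells alone. The control libraries, from animals fed with unc22 RNAi as the non-targeting control, took no part in the tests. Their levels at days 6 and 9 (4 libraries each) are given beside the results, as are those of the 8 zfp1 and p53 libraries and 3 control libraries of day 13. PolyA RNA was sequenced.

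The X1 gate, set on Hoechst staining, collects cells with replicated DNA, most of them neoblasts in division, the stem cells from which planarians renew all their tissues. In planarians zfp-1 is a zinc finger gene of the neoblasts that give rise to epidermis, whereas planarian p53 is related to the tumour suppressor of vertebrates and is known to act in neoblasts and their progeny. Loss of either gene is known to reduce epidermal progeny, which makes the transcripts that tell the knockdowns apart the object of the comparison. The transcripts carry identifiers without gene names. The knockdown of each target and the cell type markers were therefore not checked here, and no transcript below is given a gene name or a role. In sorted bulk RNA, fewer cells of a type and less RNA per cell cannot be told apart.

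Reads recovered from the deposited RPKM values (RPKM being reads per kilobase of transcript, scaled to library size) came to between 4391559 and 26115474 per library. A principal component analysis of log2(RPKM + 1) set 3 libraries apart. The library zfp1 day 6 replicate 1 lay at 119 on the first component (33.2% of the variance), and the others between -22.3 and 6.29. It had 4945 transcripts at 0, and its most abundant transcript took 25.2% of its reads, against at most 20.5% in the others. On the second component (25.7%) zfp1 day 6 replicate 4, the shallowest library, lay at -63.4 and p53 day 9 replicate 4 at -62.6, with the others between -10.5 and 42.6. Neither of these components separated zfp1 from p53 libraries. Of day 13, zfp1 replicate 5 had 5021 transcripts at 0 and 32.3% of its reads in 1 transcript, and control replicate 5 had 4546 and 27.5%, more than the other day 13 libraries. The closest libraries of a group were zfp1 day 9 replicates 3 and 4, with a chi-square per transcript of 1.76, above sampling noise, against 3.86 for the next closest. The labels do not say whether they share a source. They were kept as separate replicates, so the n of 8 for zfp1 RNAi counts both. Averaging them into 1 library gave 9 calls over both days in place of the 11 below, without SMED30013690 and SMED30005036. It also ended the day 6 calls of SMED30023071 and SMED30000769 and the day 9 call of SMED30010549. Nothing in the labels says that replicates came from separate batches of animals, so p-values measure only how these libraries vary, and that variation may be technical.

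**Figure D1:**
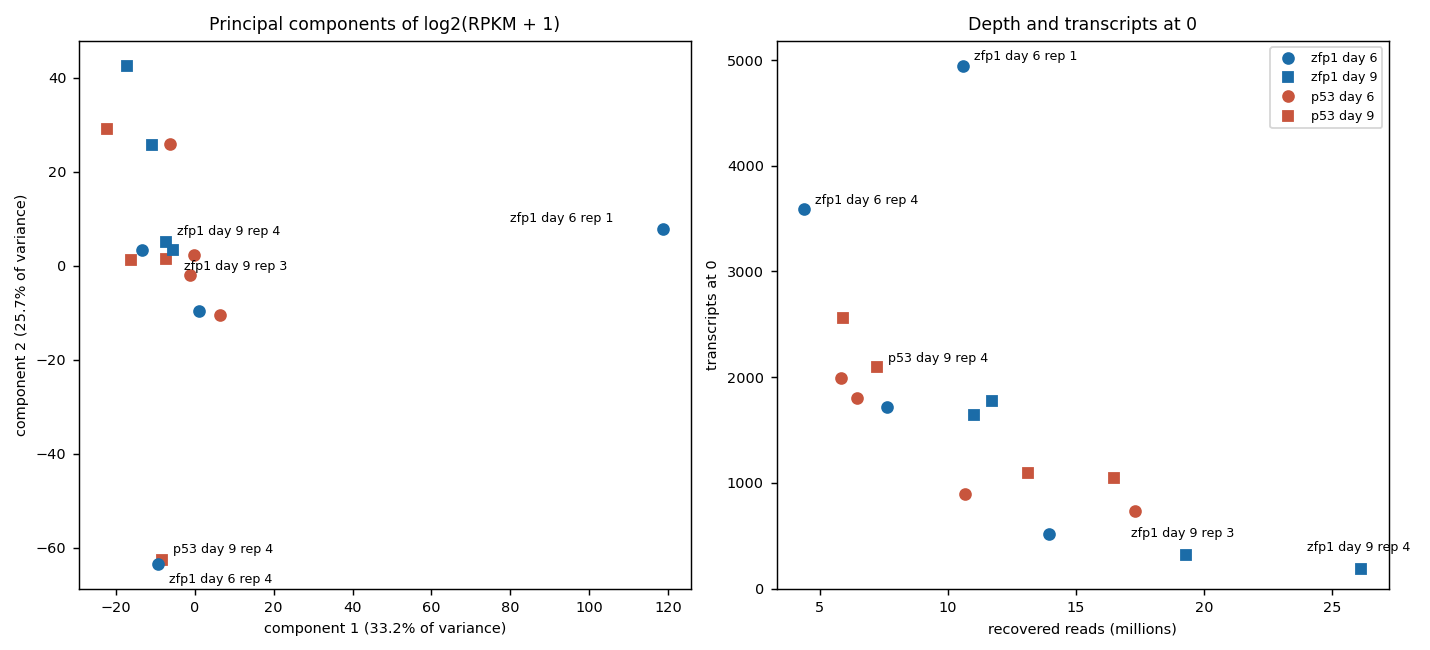
The left panel plots the first and second principal components of log2(RPKM + 1) over the 16 libraries, and the right panel the recovered reads against the number of transcripts at 0. Colours mark the RNAi and symbols the day. zfp1 day 6 replicate 1 stands alone at 119 on the first component and has 4945 transcripts at 0, while zfp1 day 6 replicate 4 and p53 day 9 replicate 4 share the low end of the second.

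With day as a factor, 11 of 17903 tested transcripts (0.0614%) differed between the knockdowns at an adjusted p under 0.05 (limma on log2(RPKM + 1), Benjamini-Hochberg). Of these, 9 (0.0503% of tested transcripts) were higher after zfp1 RNAi and 2 (0.0112%) were lower. The leading transcript, SMED30023874, differed more than 10-fold in mean RPKM on both days, and SMED30026364 and SMED30023071 followed. An unadjusted p under 0.05 was reached by 531 transcripts (2.97%), below the share of 0.05 that such a p gives where no transcript differs. Without zfp1 day 6 replicate 1 the count was 19 (0.106%), with 13 higher and 6 lower after zfp1 RNAi, and all 11 were among them. The 11 transcripts had mean levels of 0.991 to 30.0 RPKM, against a median of 4.70 RPKM over all tested transcripts.

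The position of the control varied among the called transcripts. For 5 of the 11 (SMED30000938 among them) the mean control level of days 6 and 9 was above both knockdowns, for 5 it was between them and for 1 it was below both. It was nearer to the zfp1 than to the p53 level for 8 of the 11. Both knockdowns are set beside the same control libraries, so these positions are descriptions. They were not counted over all tested transcripts, so they cannot be read as particular to the called ones.

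Of the 9 transcripts higher after zfp1 than after p53 RNAi, 4 were below the control after both knockdowns and further from it after p53 RNAi. They were SMED30023874, SMED30026364, SMED30023071 and SMED30006464. SMED30023874, with a length of 1260 bases inferred from its values, was at 56.0, 37.3, 42.5 and 28.9 RPKM in the zfp1 libraries of day 6 and at 3.99, 4.09, 3.04 and 4.00 RPKM in the p53 libraries. At day 9 it was at 44.9, 50.0, 37.4 and 35.6 RPKM after zfp1 RNAi and at 2.71, 2.65, 3.19 and 1.55 RPKM after p53 RNAi. The lowest zfp1 library was thus several times above the highest p53 library, whose values still rested on 17 to 82 reads each. The ratio of the group means was 10.9 at day 6 and 16.6 at day 9. Its log2 difference over both days was 3.36 ± 0.15 (SE, n = 8 per knockdown; adjusted p = 7.9e-10, limma), and 3.31 ± 0.15 without zfp1 day 6 replicate 1. The control was at 62.8 ± 3.83 RPKM (SD, n = 4) at day 6 and 72.1 ± 17.7 RPKM (SD, n = 4) at day 9. On the log2 scale zfp1 RNAi lay at -0.63 and -0.75 from the control on these days and p53 RNAi at -3.74 and -4.37.

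SMED30026364, with an inferred length of 2047 bases, was at 9.73, 22.2, 20.7 and 20.8 RPKM after zfp1 RNAi at day 6 and at 5.29, 6.03, 3.89 and 4.62 RPKM after p53 RNAi. The low zfp1 value came from replicate 1, and all zfp1 libraries were above all p53 libraries. At day 9 the zfp1 libraries lay within a narrow range, at 22.1, 22.6, 22.2 and 21.6 RPKM, and the p53 libraries at 2.70, 1.99, 3.19 and 2.86 RPKM. On the log2 scale the knockdowns differed by 2.15 ± 0.19 over both days (SE; adjusted p = 2.2e-05, limma) and 2.31 ± 0.13 without zfp1 day 6 replicate 1. Both knockdowns were well under the control, which was at 61.4 ± 4.80 RPKM (SD, n = 4) at day 6 and 72.3 ± 9.73 RPKM (SD, n = 4) at day 9. The difference was 1.65 ± 0.21 at day 6 and 2.66 ± 0.21 at day 9 (SE). Its change between the days, 1.01 ± 0.30 (SE), did not pass after adjustment (adjusted p = 0.31, limma), nor without zfp1 day 6 replicate 1, where it was 0.75 ± 0.19 (adjusted p = 0.13).

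SMED30023071 was at 4.46, 8.35, 5.91 and 7.89 RPKM after zfp1 RNAi at day 6 and at 1.70, 2.60, 1.98 and 2.71 RPKM after p53 RNAi. At day 9 it was at 7.65, 5.61, 7.18 and 7.14 RPKM against 2.10, 1.42, 1.11 and 1.67 RPKM. The groups were separate on both days, with a log2 difference of 1.42 ± 0.14 (SE; adjusted p = 7.55e-05, limma). The control libraries of these days ranged from 15.2 to 20.7 RPKM, above every library of both knockdowns.

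SMED30006464, inferred at 686 bases, was at 70.1, 34.0, 29.4 and 28.5 RPKM after zfp1 RNAi at day 6 and at 20.6, 22.3, 19.0 and 18 RPKM after p53 RNAi. At day 9 the values were 42.9, 43.4, 36.7 and 36.1 RPKM after zfp1 RNAi and 20.4, 21.7, 20.0 and 17.1 RPKM after p53 RNAi. The log2 difference over both days was 0.93 ± 0.15 (SE; adjusted p = 0.0182, limma). The value of 70.1 RPKM came from zfp1 day 6 replicate 1 and lay near the control of that day, at 76.5 to 87.0 RPKM. Without this library the difference was smaller but better determined, 0.80 ± 0.093 (SE; adjusted p = 0.000766, limma). The call ended when p53 day 6 replicate 3 or 4, p53 day 9 replicate 1 or 3, or zfp1 day 9 replicate 1 or 2 was left out, with an adjusted p of at most 0.065 over all alternatives.

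**Figure D2:**
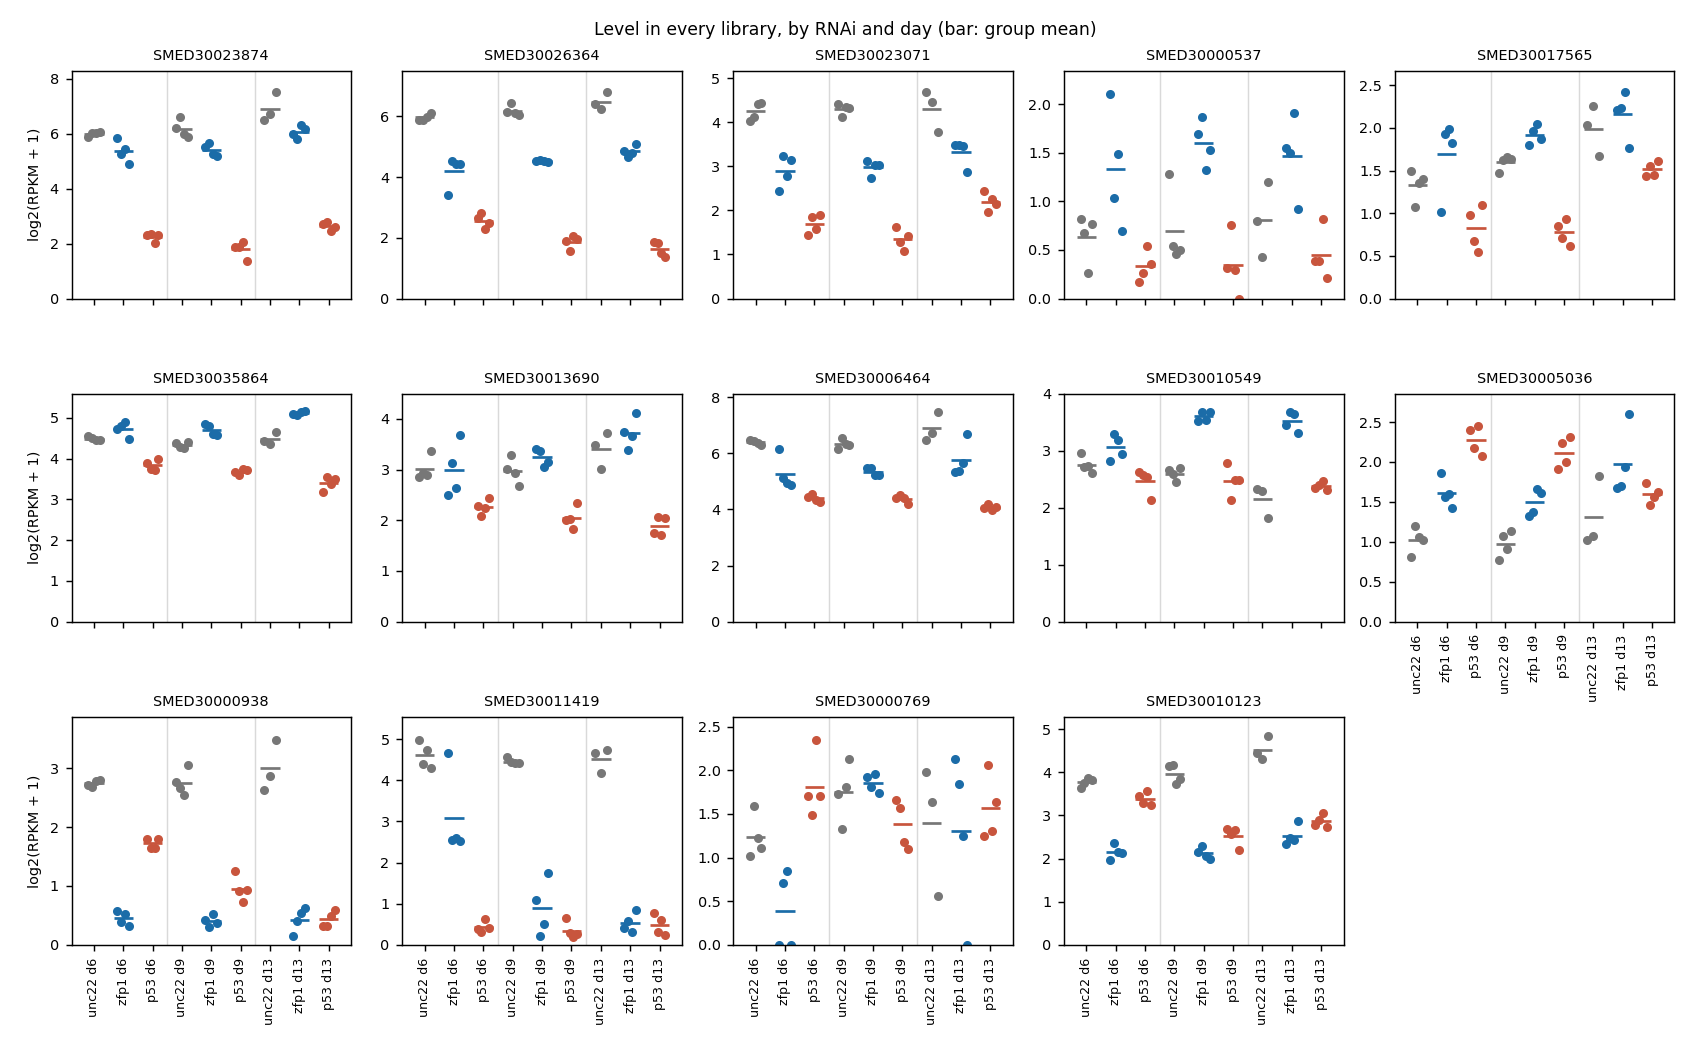
Each panel plots log2(RPKM + 1) of 1 transcript in every library, by RNAi and day (d6, d9 and d13), with a bar at the group mean. Grey is the unc22 control, blue zfp1 RNAi and red p53 RNAi. The first panel shows SMED30023874 at 28.9 RPKM or more in all zfp1 libraries of days 6 and 9 and at 4.09 RPKM or less in all p53 libraries of these days.

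For the other 5 of these 9 transcripts the mean control level lay between the knockdowns. They were SMED30035864, SMED30010549, SMED30013690, SMED30017565 and SMED30000537. SMED30035864, inferred at 1645 bases, was at 25.4, 27.1, 28.8 and 21.4 RPKM after zfp1 RNAi at day 6 and at 13.8, 12.4, 12.1 and 15 RPKM after p53 RNAi. At day 9 it was at 27.8, 26.8, 23.2 and 23.1 RPKM and at 11.8, 11, 12.3 and 12.1 RPKM. The control was at 21.5 ± 0.722 RPKM (SD, n = 4) and 19.3 ± 1.00 RPKM (SD, n = 4) on these days, above all p53 libraries and, at day 9, below all zfp1 libraries. The log2 difference between the knockdowns was 0.96 ± 0.090 (SE; adjusted p = 3.0e-05, limma), and it was 0.97 ± 0.084 without zfp1 day 6 replicate 1.

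SMED30010549 was at 6.04 to 8.87 RPKM after zfp1 RNAi at day 6, against 3.39 to 5.19 RPKM after p53 RNAi. At day 9 the zfp1 libraries were at 10.5, 11.8, 10.7 and 11.8 RPKM and the p53 libraries at 5.87, 3.40, 4.63 and 4.6 RPKM. The control stayed at 4.47 to 6.79 RPKM over both days, so that at day 9 all zfp1 libraries were above that range and no p53 library was. Over both days the log2 difference was 0.86 ± 0.13 (SE; adjusted p = 0.0158, limma), and the day 9 difference of 1.13 ± 0.17 also passed (adjusted p = 0.0174). Of single libraries, leaving out p53 day 9 replicate 3 or zfp1 day 9 replicate 1 or 2 ended the call over both days, with an adjusted p of at most 0.0565 over all alternatives. That of day 9 ended in 10 of 32 alternatives, among them the removal of any zfp1 library of day 9 or of p53 day 9 replicate 2, 3 or 4.

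SMED30013690 was at 4.62 to 11.9 RPKM after zfp1 RNAi at day 6 and at 3.21 to 4.40 RPKM after p53 RNAi. At day 9 the ranges were 7.23 to 9.61 RPKM and 2.53 to 4.04 RPKM, and the control of both days spanned 5.38 to 9.33 RPKM. Its log2 difference of 0.96 ± 0.16 (SE; adjusted p = 0.0303, limma) lost its call in 13 of 31 alternatives, with an adjusted p of at most 0.0986. The removal of any of 11 libraries ended it, namely p53 day 6 or day 9 replicates 1 to 3, zfp1 day 6 replicate 2 and the 4 zfp1 libraries of day 9.

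SMED30017565 and SMED30000537 also passed, at 1.00 ± 0.15 (SE; adjusted p = 0.00975, limma) and 1.13 ± 0.18 (adjusted p = 0.0174). Both lie outside the rule for named transcripts, because their zfp1 and p53 libraries overlapped over the days together, and were named after their values were seen. For SMED30017565 the overlap came from zfp1 day 6 replicate 1, at 1.03 RPKM. The other zfp1 libraries of that day were at 2.53 to 2.95 RPKM and the p53 libraries at 0.465 to 1.14 RPKM. Without that library the log2 difference was 1.12 ± 0.10 (SE; adjusted p = 4.07e-05, limma). SMED30000537 rested on few reads, 0 to 7 in the p53 libraries and 2 to 36 in the zfp1 libraries. Its highest zfp1 value, 3.31 RPKM, came from zfp1 day 6 replicate 1. Without that library its log2 difference was 1.02 ± 0.16 over both days (SE, adjusted p = 0.0129, limma). Its call ended without p53 day 6 replicate 1, p53 day 9 replicate 1 or 3, or zfp1 day 9 replicate 1 or 2, with an adjusted p of at most 0.0603.

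The 2 transcripts higher after p53 than after zfp1 RNAi were SMED30000938 and SMED30005036, which lay on opposite sides of the control. SMED30000938 was at 0.495, 0.308, 0.438 and 0.253 RPKM after zfp1 RNAi at day 6 and at 2.49, 2.14, 2.14 and 2.46 RPKM after p53 RNAi, against 5.42 to 5.95 RPKM in the control. At day 9 the zfp1 libraries were at 0.228 to 0.436 RPKM and the p53 libraries at 0.646 to 1.38 RPKM. This gave a log2 difference of -0.91 ± 0.14 over both days (SE; adjusted p = 0.0101, limma), -1.27 ± 0.15 at day 6 (adjusted p = 0.0021) and -0.55 ± 0.15 at day 9 (adjusted p = 0.549). The day 6 call was lost with quantile scaling (-1.11; adjusted p = 0.0578, limma) and in the fit on day 6 alone. The zfp1 values rest on 2 to 15 reads a library, and all 8 zfp1 libraries were below all 8 p53 libraries.

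SMED30005036 was above the control after both knockdowns and further above it after p53 RNAi. It was at 1.68 to 2.63 RPKM after zfp1 RNAi and 3.22 to 4.45 RPKM after p53 RNAi at day 6, and at 1.5 to 2.16 RPKM and 2.76 to 3.98 RPKM at day 9. The control of these days was at 0.703 to 1.29 RPKM. The log2 difference of -0.64 ± 0.11 (SE) passed narrowly (adjusted p = 0.0449, limma). The call ended in 22 of 30 alternatives, with the same direction in all 30 and an adjusted p of at most 0.159. The removal of any single library other than zfp1 day 6 replicate 1 ended it.

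**Figure D3:**
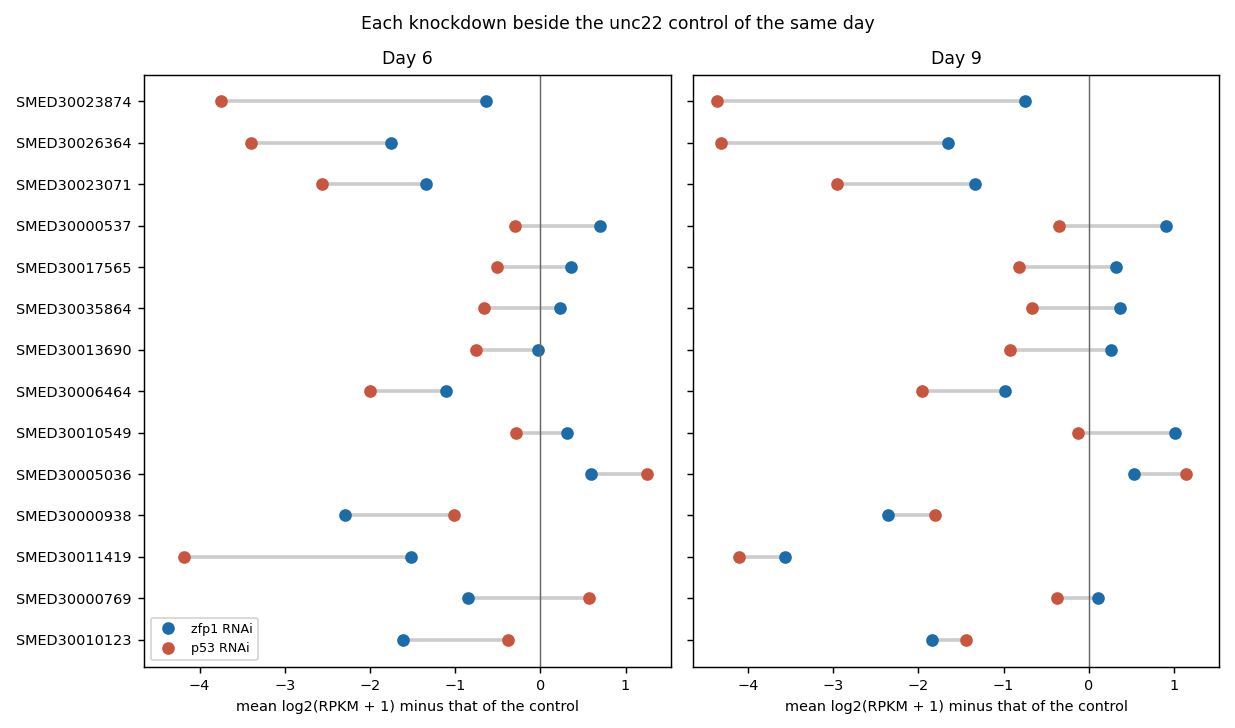
The plot of knockdown against control gives, for the 14 transcripts that passed over both days or at day 6, the mean log2(RPKM + 1) after zfp1 RNAi (blue) and p53 RNAi (red) minus that of the unc22 control of the same day, with no error drawn. The grey line joins the knockdowns. SMED30023874 shows the longest line at both days, and SMED30035864 lies on both sides of the control, at 0.24 and -0.66 at day 6.

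At day 6, 8 transcripts passed (0.0447%), 5 higher (0.0279%) and 3 lower (0.0168%) after zfp1 RNAi, and 1311 (7.32%) had an unadjusted p under 0.05. Without zfp1 day 6 replicate 1 the count was 11 (0.0614%), 6 higher and 5 lower, and 7 of the 8 were among them. SMED30023874, SMED30026364, SMED30023071, SMED30035864 and SMED30000938, described above, made up 5 of the 8. The other 3, SMED30011419, SMED30010123 and SMED30000769, did not pass over both days together. In a fit on the 8 libraries of day 6 alone the log2 differences were the same and SMED30023874 alone passed (adjusted p = 0.000813, limma), with an adjusted p of 0.26 to 0.908 for the other 7. The day 6 call of SMED30023071 was lost in 16 of 31 alternatives, the fit on day 6 alone among them. They include the removal of any 1 p53 library of day 6, zfp1 day 6 replicate 2, 3 or 4, p53 day 9 replicate 2, or zfp1 day 9 replicate 1, 3 or 4. That of SMED30035864 was lost without p53 day 6 replicate 2 or 3.

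SMED30011419, inferred at 573 bases, was at 24.4, 4.87, 5.03 and 4.73 RPKM after zfp1 RNAi at day 6 and at 0.298, 0.237, 0.535 and 0.322 RPKM after p53 RNAi, the latter from 1 to 3 reads a library. The control was at 18.5 to 30.7 RPKM, so replicate 1 of zfp1 RNAi lay within the control's range and the other zfp1 libraries did not. The log2 difference was 2.66 ± 0.41 (SE; adjusted p = 0.0207, limma), and 2.13 ± 0.27 (adjusted p = 0.00369) without replicate 1. The call ended in 9 of 31 alternatives, among them the removal of any 1 p53 library of day 6. Limma-voom on the recovered reads (adjusted p = 0.208) and a pseudocount of 5 RPKM (adjusted p = 0.128) also ended it. At day 9 the zfp1 libraries were at 1.14, 0.163, 0.418 and 2.33 RPKM and overlapped the p53 libraries at 0.133 to 0.568 RPKM. The day 9 difference was 0.54, with a 95% interval of -0.32 to 1.41. The change between days, -2.12 ± 0.58 (SE), did not pass (adjusted p = 0.286, limma).

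SMED30010123 differed in the other direction. It was at 2.89, 4.12, 3.44 and 3.38 RPKM after zfp1 RNAi at day 6 and at 10.01, 8.80, 10.8 and 8.50 RPKM after p53 RNAi, with the control at 11.4 to 13.5 RPKM. At day 9 zfp1 RNAi was at 2.98 to 3.93 RPKM and p53 RNAi at 3.61 to 5.43 RPKM, with the control at 12.3 to 16.9 RPKM. The p53 libraries were thus nearer to the control than to the zfp1 libraries at day 6, and nearer to the zfp1 libraries at day 9. The log2 difference was -1.24 ± 0.15 at day 6 (SE; adjusted p = 0.00272, limma) and -0.40 ± 0.15 at day 9 (adjusted p = 0.763). Over both days it was -0.82 ± 0.15, just outside the threshold (adjusted p = 0.0508), and inside it without zfp1 day 6 replicate 1 (-0.76 ± 0.14; adjusted p = 0.047). SMED30000938 and SMED30010123 had this course in common, with zfp1 levels far below the control at day 6 and p53 levels closer to them at day 9 than at day 6. Both passed at day 6 and not at day 9, and a choice on the day 6 difference favours a smaller one at day 9. The change of the difference between days did not pass for either (adjusted p = 0.305 and 0.279, limma).

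SMED30000769, inferred at 300 bases, had 0, 3, 2 and 0 reads in the zfp1 libraries of day 6 and 8, 4, 8 and 11 reads in the p53 libraries. Its log2 difference of -1.42 ± 0.235 (SE; adjusted p = 0.036, limma) lost its call in 22 of 31 alternatives, among them the removal of any 1 p53 library of day 6, any 1 zfp1 library of day 9, zfp1 day 6 replicate 1 or 4, or p53 day 9 replicate 2 or 3. Without zfp1 day 6 replicate 1 it was -1.29 ± 0.235 (adjusted p = 0.0684). At day 9 it was at 2.34 to 2.87 RPKM after zfp1 RNAi and 1.15 to 2.17 RPKM after p53 RNAi, separate in the opposite direction, with a difference of 0.48 ± 0.235 (adjusted p = 0.816). The change between days was 1.90 ± 0.33 (adjusted p = 0.269).

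At day 9, 5 transcripts passed (0.0279%), each higher after zfp1 RNAi, and 1097 (6.13%) had an unadjusted p under 0.05. They were SMED30023874 (log2 difference 3.62 ± 0.20, SE), SMED30026364, SMED30023071 (1.62 ± 0.19), SMED30035864 (1.03 ± 0.13) and SMED30010549. In each of the 5 every zfp1 library was above every p53 library, at day 6 as at day 9. Over all tested transcripts the libraries were separate in either direction for 3.19% at day 6 and for 6.73% at day 9. The choice of the 5 by their day 9 difference favours separation at day 9, so the day 9 share is no test of it. 4 of the 5 had also passed at day 6. Without zfp1 day 6 replicate 1, which leaves the day 9 differences as they are and narrows the shared spread, 24 transcripts passed at day 9 (0.134%), 21 higher and 3 lower, among them the 5. Of the 17903 tested transcripts, quantile scaling gave 12 higher and 2 lower at day 9, and 7 higher and 2 lower at day 6. Library quality weights ranged from 0.0840 for zfp1 day 6 replicate 1 to 6.25 for zfp1 day 9 replicate 4. With them 2077 of the 17903 tested transcripts passed at day 9, 1207 higher and 870 lower. The heaviest weights, 4.45 and 6.25, fell on zfp1 day 9 replicates 3 and 4, the libraries closest to each other.

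**Figure D4:**
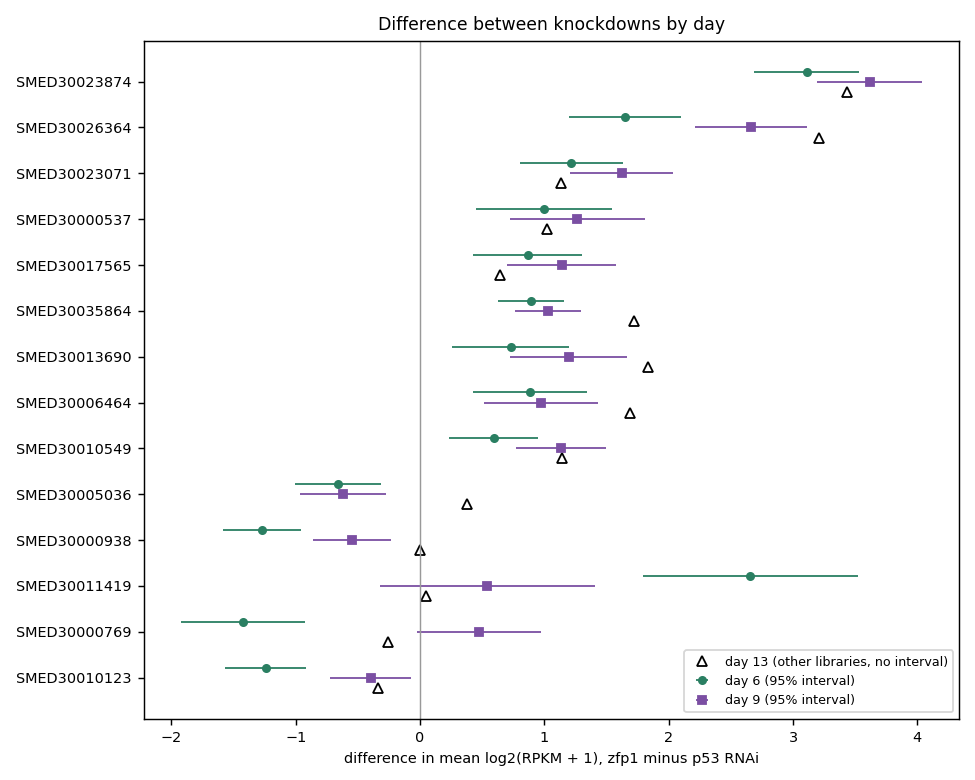
For the 14 transcripts, the plot of differences by day gives mean log2(RPKM + 1) after zfp1 RNAi minus that after p53 RNAi, with 95% intervals from limma at days 6 and 9 and the value alone at day 13. SMED30023874 stays between 3.11 and 3.62 on the 3 days, while SMED30000938, SMED30010123 and SMED30011419 are nearer to 0 at days 9 and 13 than at day 6. SMED30000938, SMED30010123 and SMED30011419 passed at day 6 and not at day 9, a choice that favours smaller differences at day 9.

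No transcript passed the test of whether the difference between the knockdowns itself changed from day 6 to day 9 (limma). An unadjusted p under 0.05 was reached by 1935 transcripts (10.8%). Limma-voom on the recovered reads also gave 0, the spread shared by all 9 groups gave 1, and library quality weights gave 245. Across the 17903 tested transcripts, which are not independent replicates, the day 6 and day 9 differences share no library and had a Pearson correlation of -0.34. The sign was the same on both days for 38.1% of transcripts. The correlation was -0.50 without zfp1 day 6 replicate 1. Without zfp1 day 6 replicate 4 and p53 day 9 replicate 4, which lay together on the second component, the correlation was -0.076, and with zfp1 day 6 replicate 1 also left out it was -0.27. Against this background each of the 11 transcripts called over both days had the same sign at day 6 and day 9, which their selection on the mean of both days favours.

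**Figure D5:**
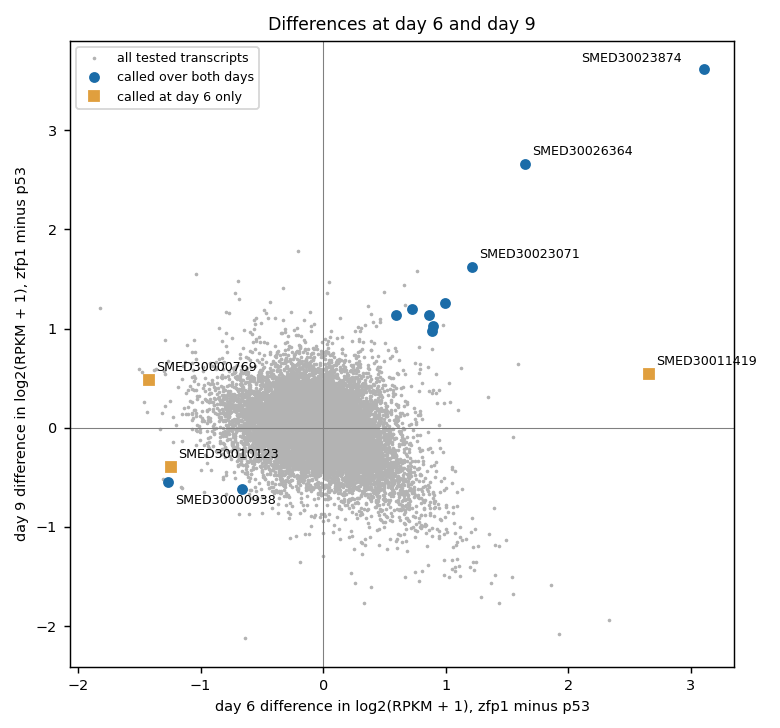
The scatter plot gives the difference in log2(RPKM + 1), zfp1 minus p53 RNAi, at day 6 (horizontal axis) and day 9 (vertical axis) for 17903 tested transcripts, in grey. Blue points are the 11 transcripts called over both days and orange squares the 3 called at day 6 only. The grey cloud leans towards opposite signs, with a Pearson correlation of -0.34, and 9 of the blue points lie in the upper right quadrant.

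Complete separation of the 8 zfp1 from the 8 p53 libraries over both days was seen for 19 transcripts (0.106%), 13 higher and 6 lower after zfp1 RNAi. Of these, 9 were among the 11 called. The day 13 libraries, which took no part in the choice, were separate in the same direction for 12 of the 19, against 20.9% of all tested transcripts separate in either direction at day 13. Without zfp1 day 13 replicate 5 it was again 12 of 19, against 26.8%. Of the 11 called, 10 had the same sign at day 13, where 48.3% of tested transcripts were higher after zfp1 RNAi, and 9 were separate there in the same direction, counts that were the same without that library. Those 9 were the transcripts higher after zfp1 RNAi. SMED30023874 was at 61.7, 55.0, 78.9 and 71.3 RPKM after zfp1 RNAi at day 13 and at 5.58, 5.84, 4.55 and 5.01 RPKM after p53 RNAi. SMED30026364 was at 24.4 to 32.9 RPKM against 1.61 to 2.62 RPKM, so that its difference of 3.21 on the log2 scale was above those of days 6 and 9. SMED30035864 (1.72), SMED30013690 (1.83) and SMED30006464 (1.69) also had larger log2 differences at day 13 than at days 6 and 9, whereas SMED30023071 (1.13) and SMED30017565 (0.65) had smaller ones than on either day. These comparisons were not tested. In SMED30006464 zfp1 replicate 5 was at 103 RPKM and the others at 38.9 to 49.5 RPKM, and the difference was 1.38 without it. Without it SMED30023071 was at 1.28, between its values of days 6 and 9.

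The 2 transcripts higher after p53 RNAi did not carry over to day 13. SMED30000938 was at 0.112 to 0.546 RPKM after zfp1 RNAi and 0.249 to 0.515 RPKM after p53 RNAi, with the control at 5.21, 6.32 and, in replicate 5, 10.2 RPKM. Its log2 difference was -0.0030 there, with overlapping libraries. SMED30005036 was at 2.19, 2.24, 2.83 and, in replicate 5, 5.07 RPKM after zfp1 RNAi and at 1.76 to 2.33 RPKM after p53 RNAi. The libraries overlapped, and the log2 difference of 0.38, in the opposite direction, was 0.17 without replicate 5.

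Direct differences are also given for 6 transcripts that differed from the control after one or both knockdowns. They were chosen after their values were seen, as leading changes against the control. Of these, 3 were far below the control after both knockdowns. SMED30012332 was at 1.32 to 3.85 RPKM after zfp1 RNAi and 1.30 to 2.36 RPKM after p53 RNAi at day 6, with the control at 27.6 to 34.1 RPKM. The log2 difference was 0.44 at day 6, with a 95% interval of -0.02 to 0.90, and 0.49 at day 9 (0.03 to 0.95). Neither passed after adjustment (adjusted p = 0.684 and 0.811, limma). SMED30023708, at 129 to 194 RPKM in the control over both days, was at 10.5 to 28.6 RPKM after zfp1 RNAi and 22 to 27 RPKM after p53 RNAi at day 6. Its difference was -0.35 (-1.03 to 0.33) at day 6 and -0.49 (-1.17 to 0.19) at day 9. The value of 28.6 RPKM came from zfp1 day 6 replicate 1, without which the day 6 difference was -0.55 ± 0.33 (SE). SMED30011490 was at 0.718 to 2.18 RPKM after zfp1 RNAi and 3.20 to 5.09 RPKM after p53 RNAi at day 6, so its libraries were separate. The difference of -0.97 (-1.45 to -0.49) did not pass after adjustment (adjusted p = 0.414, limma), and at day 9 it was -0.17 (-0.66 to 0.31). None of these intervals shows that the knockdowns act alike.

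The other 3 had mean levels above the control at day 6 after both knockdowns. SMED30002500 was at 13.6 to 29.8 RPKM after zfp1 RNAi and 7.10 to 8.68 RPKM after p53 RNAi at day 6, with the control at 2.75 to 3.92 RPKM. Its log2 difference of 1.10 (0.66 to 1.54) had an adjusted p of 0.105 (limma), and at day 9 it was 0.18 (-0.26 to 0.61). The value of 29.8 RPKM came from zfp1 day 6 replicate 1. Without that library the day 6 difference was 0.88 ± 0.16 (SE, adjusted p = 0.0684, limma). SMED30028059 was at 9.63 to 19.8 RPKM after zfp1 RNAi and 6.38 to 9.68 RPKM after p53 RNAi at day 6, with the control at 3.35 to 5.45 RPKM. At day 9 its zfp1 libraries, at 5.04 to 9.58 RPKM, overlapped the control at 5.05 to 7.65 RPKM. It had a difference of 0.74 (0.22 to 1.25) at day 6 and -0.45 (-0.97 to 0.07) at day 9. Neither passed after adjustment (adjusted p = 0.677 and 0.844, limma). Without zfp1 day 6 replicate 1, which was at 19.8 RPKM, the day 6 difference was 0.60 ± 0.24 (SE). SMED30008464 had a higher mean after p53 RNAi on both days, with differences of -0.42 (-0.92 to 0.08) and -0.64 (-1.14 to -0.14). Neither passed (adjusted p = 0.689 and 0.736, limma). At day 6 its libraries overlapped, at 1.99 to 6.20 RPKM after zfp1 RNAi and 4.98 to 6.58 RPKM after p53 RNAi. The control of that day was at 1.59 to 1.95 RPKM. At day 9 the ranges were 2.96 to 4.00 RPKM and 4.01 to 7.12 RPKM, with the control at 1.61 to 2.85 RPKM.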

How the data were processed

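The authors deposited RPKM values for 25462 transcripts in 35 libraries. The submitters' processing notes list edgeR, Bowtie and CASAVA 1.8.2 without saying what each did. The transcript assembly is not given in the sources used here. Per the labels' protocols, libraries were made with the Illumina TruSeq kit from 100 ng of RNA of Hoechst-sorted cells.

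Whole reads were recovered with numpy 2.4.6 from the step between low values, which gives every transcript a whole length and every library 1 divisor. All 25462 (100%) came out whole within 0.01 reads. The divisor was 0.617 to 1.21 times the total reads, so RPKM totals differ between libraries. Values resting on few reads carry large counting errors, which matters for the weak transcripts named.

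Since RPKM values are no counts, limma 3.58.1 (R 4.3.3, intensity trend) was run on log2(RPKM + 1), which understates the change of weak transcripts. The test took transcripts that reached 1 RPKM in 3 or more of the 16 libraries, 17903 in all, and an adjusted p under 0.05 (Benjamini-Hochberg over these) was a call. The model was additive in RNAi and day for the comparison over both days, and had a mean for each of 4 groups otherwise. It was tested on simulated data with independent normal noise, no day effect and no outlying library. The known changes were placed only in transcripts with a mean of at least 5 RPKM. The simulation thus does not cover the libraries that stand apart or the weak transcripts named here. The members, tests and lists were chosen with earlier results of these data known. Named transcripts were the 12 largest differences each way over both days, and 3 each way per day, taken from calls with no overlap between the knockdowns' libraries, and 3 each way for the change between days. Marker lists of neoblast classes and other cell types could not be applied without gene names. Alternatives were other pseudocounts, filters and scalings, robust empirical Bayes, a replicate block, other estimates of the spread, quality weights, limma-voom on recovered reads, a fold minimum and leaving out each library. Those with 2 or 3 libraries left out, zfp1 day 9 replicates 3 and 4 averaged, quality weights without zfp1 day 6 replicate 1, and day 13 without zfp1 replicate 5 were added after seeing the data.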

Additional observations from a re-analysis of the deposited data

Results flagged for a closer look

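In groups of 4 libraries, 5 of 68 sets of values had 1 library far from the other 3, where chance flags about 1 in 20. SMED30011419 was at 24.4 RPKM, SMED30006464 at 70.1 RPKM and SMED30026364 at 9.73 RPKM in zfp1 day 6 replicate 1, the first and second above and the third below the other libraries of the group. SMED30023874 was at 3.04 RPKM in p53 day 6 replicate 3, below the others. The most abundant transcript took 19.8% of the reads of p53 day 6 replicate 4, more than in the others.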

How the results depend on the processing

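Over both days, 21 of 32 alternatives kept the count of 11 within 1.5 times, at day 6 23 of 33, at day 9 24 of 33 and for the change between days 28 of 32. With the fold minimum set aside, SMED30023874, SMED30026364, SMED30023071, SMED30035864, SMED30000938 and SMED30017565 kept their calls over both days in all alternatives that tested them. The mean of at least 5 RPKM left SMED30023071, SMED30000938 and SMED30017565 untested. No named transcript changed direction. The cause of these shifts was not tested. Counts are given for both days, day 6, day 9 and the change between days, where they moved. A mean of at least 5 RPKM, which tests fewer transcripts, gave 6 over both days and 4 at day 6. Quantile scaling gave 14 at day 9 and limma-voom 12. Spread shared by all 9 groups gave 34, 19, 23 and 1. Quality weights gave 162, 34, 2077 and 245, and without zfp1 day 6 replicate 1 they gave 124, 15, 1940 and 49. Libraries of 1 day alone gave 1 at day 6 and 12 at day 9. An absolute log2 difference of at least 1 left 5 over both days, not SMED30035864 (0.96) or SMED30000938 (-0.91). Without zfp1 day 6 replicate 4 and p53 day 9 replicate 4, 5 passed at day 6, and with zfp1 day 6 replicate 1 also left out 22 passed over both days and 22 at day 9. Leaving out each library gave 6 to 19 over both days, 4 to 11 at day 6, 4 to 24 at day 9 and 0 to 0 for the change. The count over both days was 6 without p53 day 9 replicate 3 or zfp1 day 9 replicate 1 or 2, and 7 without p53 day 9 replicate 1. At day 6 it was 4 or 5 without any 1 of the p53 libraries of that day, and at day 9 it was 9 without zfp1 day 6 replicate 4.

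Same-numbered libraries deviated together in some pairs and not in others (r = -0.031, 0.014, -0.0031 and 0.31 at day 6, and 0.078, 0.41, -0.41 and 0.48 at day 9). Differently numbered pairs ranged from -0.37 to 0.37 at day 6 and from -0.54 to 0.50 at day 9. Not every same-numbered pair was over 0.1, and the numbers were not taken as pairs. The fit with a replicate block gave 9 over both days, 6 at day 6, 7 at day 9 and 1 for the change between days, and ended the calls of SMED30010549 and SMED30005036 over both days. Low reads limit SMED30000769, SMED30000537, the p53 values of SMED30011419 and the zfp1 values of SMED30000938.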
